A study of Bos taurus with 31 samples.

Results

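Interferon-stimulated genes are the genes that cells switch on when interferons reach them, and 37 symbols of this kind were followed in the liver of dairy cows. The members were the genes of the count table whose symbol was on that list, and 36 of the 37 were found among 24616 genes; no gene carried the symbol *BST2*, so it has no value here. All 36 found members had reads in every cow and were among the 15916 genes tested. Total RNA of liver puncture biopsies, taken at the end of a feeding trial with lactating German Holstein cows, was sequenced after selection of mRNA, and each cow gave 1 library. The cows received a total mixed ration that was either contaminated with glyphosate, the herbicide residue under study (GLY groups), or a control ration, which still carried minimal background residues (CON groups). In each treatment the concentrate feed proportion (CFP) was high (HC) or low (LC), which gave CONHC (n = 8), CONLC (n = 8), GLYHC (n = 8) and GLYLC (n = 7). All cows shared the same breed and the same kind of ration apart from these factors, and the samples of 1 GLYLC cow had been lost. According to the paper, GLYHC cows took up more glyphosate than GLYLC cows because they ate more dry matter. GLYHC and GLYLC therefore differ in exposure as well as in CFP.

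Interferons are secreted proteins that warn neighbouring cells of infection. Type I and type III interferons activate the kinases JAK1 and TYK2 and a transcription complex that contains STAT2 and IRF9, whereas interferon-gamma, mainly a product of T cells and natural killer cells, induces IRF1. The induced genes include sensors of viral RNA, proteins that block viral replication, the ubiquitin-like protein ISG15 with its enzymes, and chemokines, and several of them act back on the pathway. In the liver, hepatocytes, macrophages and endothelial cells can all respond, and a biopsy holds all of them.

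Libraries held 11675775 to 36675542 reads in genes, with group medians of 15639368 in CONHC, 22532845.5 in CONLC, 21741495.5 in GLYHC and 20722019 in GLYLC. The member with the fewest reads in any cow had 11 (*OAS2*). Values are CPM, the reads of a gene scaled to a common library size with TMM factors, so they compare cows for 1 gene and not genes with each other. The 8 hepatocyte markers were present in all cows, with summed levels of 111000 to 219000 CPM. The lowest of these sums belonged to GLYLC cow 912. Its library also held 289 CPM of 4 markers of intestinal epithelium, against at most 0.228 CPM in any cow of the other groups. Because the tissue is a mixture, fewer cells of a type and less RNA per cell cannot be told apart. Differences were tested with edgeR's quasi-likelihood test, and a gene counted as called where the unadjusted p was under 0.05 and the p adjusted after Benjamini and Hochberg over all tested genes was under 0.1.

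The first question was whether CFP shifted the members when treatment was held as a covariate. *IFI6*, which encodes an interferon-inducible protein of cell membranes with antiviral and antiapoptotic activity, was higher in HC than in LC cows and was the only called member. It ranged from 9.08 to 141 CPM with a median of 13.7 in 16 HC cows, and from 5.27 to 25.8 CPM with a median of 9.02 in 15 LC cows. The ranges overlapped, and the top of the HC range was held by 2 GLYHC cows, 117 with 141 CPM and 131 with 123 CPM, followed by CONHC cow 41 with 46.6 CPM. The log2 fold change of HC over LC was 1.45 (SE 0.41, adjusted p = 0.0948 in edgeR). Without GLYHC cows 117 and 131 it was 0.68 (adjusted p = 0.214), and without GLYHC cow 117, CONHC cow 41 and GLYLC cow 912 it was 0.96 (adjusted p = 0.295), so the call was lost in both cases. It was also lost in 20 of the 31 fits that left out 1 cow each, in which the log2 fold change stayed between 1.17 and 1.63 and the adjusted p between 0.06 and 0.163. DESeq2 gave an adjusted p of 0.0259 for the same difference.

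Besides *IFI6*, 6 members had an unadjusted p under 0.05 in HC against LC, all with higher values in HC, and none of them was called. This makes 7 of 36 members (19.4%), while 13.7% of all tested genes had an unadjusted p under 0.05 (5.88% with higher values in HC) and 1.45% were called (0.679% with higher values in HC). The log2 fold change was above 0 for 33 members and below 0 for 3 (*PARP12*, *NMI* and *IFIH1*), with a median of 0.16, and 46% of all tested genes were above 0 with a median of -0.01. The HC and LC ranges overlapped for all 36 members. How many of all tested genes overlapped in this way was not counted, so this does not set the members apart. Leaving out 1 cow at a time gave 6 to 14 members at an unadjusted p under 0.05, the highest count without GLYLC cow 912, and a median between 0.11 without GLYHC cow 117 and 0.23 without GLYLC cow 912. Without GLYHC cows 117 and 131 there were 5 such members, and also 5 without the 3 cows GLYHC 117, CONHC 41 and GLYLC 912.

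*IFIT2*, a tetratricopeptide repeat protein that binds RNA and limits translation, ranged from 1.23 to 8.14 CPM in HC cows (median 3.37) and from 1.42 to 4.71 CPM in LC cows (median 2.48). Its log2 fold change was 0.66 (SE 0.23, edgeR adjusted p = 0.173). The related *IFIT3* had medians of 3.21 CPM in HC and 2.42 CPM in LC, and its log2 fold change was 0.43 (SE 0.19, edgeR adjusted p = 0.313). For *IFIT3* the highest value of all, 6.21 CPM, belonged to a cow of the lower group, CONLC 166, and without that cow the log2 fold change was 0.59. *CXCL10*, a chemokine that attracts activated T cells, ranged from 4.58 to 24.1 CPM in HC (median 8.84) and from 2.49 to 12.1 CPM in LC (median 7.39), a log2 fold change of 0.66 (SE 0.23, edgeR adjusted p = 0.182).

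*RSAD2* encodes viperin, a radical-SAM enzyme that makes an antiviral nucleotide. It ranged from 10 to 31.3 CPM in HC (median 14.5) and from 6.94 to 22.7 CPM in LC (median 10.9). The difference on the log2 scale was 0.50 (SE 0.18, edgeR adjusted p = 0.184), and its group ranges overlapped. *HERC6*, a ubiquitin ligase that attaches ISG15 to proteins in some mammals, had medians of 9.33 CPM in HC and 6.51 CPM in LC and a log2 fold change of 0.69 (SE 0.26, edgeR adjusted p = 0.224). *MX2*, a dynamin-like GTPase, had medians of 2.73 and 1.76 CPM, a log2 fold change of 0.57 (SE 0.22, edgeR adjusted p = 0.225). In each of these 3 genes, the cow with the highest value was GLYHC 117. Without GLYHC 117, CONHC 41 and GLYLC 912, the log2 fold change was 0.43 for *RSAD2* (unadjusted p = 0.00382 in edgeR), 0.49 for *HERC6* (unadjusted p = 0.0116) and 0.45 for *IFIT2* (unadjusted p = 0.0473). In the same edgeR fit it was 0.41 for *CXCL10* (unadjusted p = 0.066), 0.38 for *MX2* (unadjusted p = 0.0891) and 0.33 for *IFIT3* (unadjusted p = 0.118), so these were no longer under 0.05. Leaving out GLYHC 117 and 131 instead put *HERC6* (0.46, unadjusted p = 0.079 in edgeR) and *IFIT3* (0.37, unadjusted p = 0.0758 in edgeR) above 0.05.

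**Figure D1:**
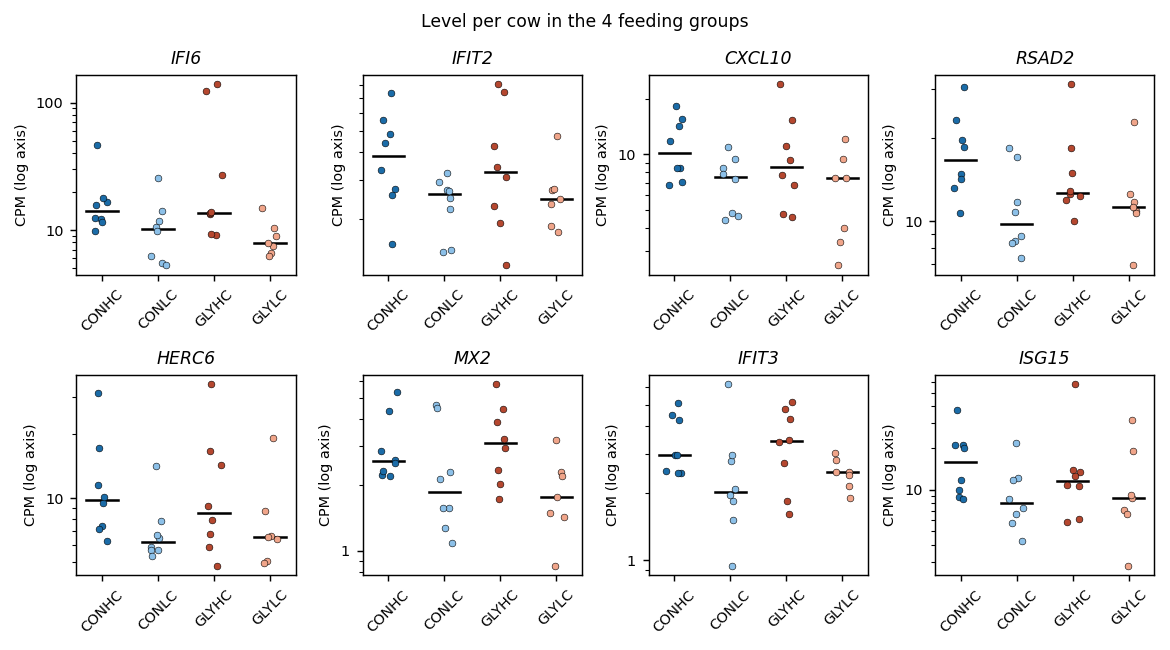
Level of 8 members in each cow by feeding group: the vertical axis is CPM on a log scale, points are cows and horizontal bars are group medians. The first 7 panels are the members with an unadjusted p under 0.05 in HC against LC, and *ISG15* is added. The groups overlap in every panel, and in *IFI6* 2 GLYHC cows stand at 141 and 123 CPM.

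The same question was then asked within each treatment. The 2 comparisons use different cows. In CON cows, 7 members had an unadjusted p under 0.05 (19.4%), all with higher values in CONHC than in CONLC, and no member was called by edgeR. Of all tested genes, 2.71% had an unadjusted p under 0.05 in this direction, 5.96% in either direction, and 0 were called. The log2 fold change was above 0 for 33 of 36 members, with a median of 0.24. Of all tested genes 46.1% were above 0, and their median was -0.01. The count depended on single cows: it was 2 without CONHC cow 41 and 13 without CONLC cow 166, with medians of 0.18 and 0.30. DESeq2 on all cows put 8 members under an unadjusted p of 0.05 and called none. DESeq2 on the CONHC and CONLC cows alone put 12 members there and called *DDX58* (log2 fold change 0.46, adjusted p = 0.0922). The shares of all tested genes given above belong to the edgeR fit of all cows. Those of the DESeq2 fits are not given here, so the DESeq2 counts cannot be set against them.

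*DDX58* encodes RIG-I, a cytoplasmic sensor of viral RNA. It ranged from 26 to 44.9 CPM in CONHC (median 34.8) and from 20.4 to 33.1 CPM in CONLC (median 24.3). The difference was 0.45 on the log2 scale (SE 0.14, edgeR adjusted p = 0.553), and in GLY cows the same difference was -0.08. *RSAD2* had medians of 16.7 CPM in CONHC and 9.84 CPM in CONLC (log2 fold change 0.67, SE 0.25), and *CMPK2*, a mitochondrial nucleotide kinase encoded beside it, had medians of 18 and 14.2 CPM (0.30, SE 0.14). *USP18*, the protease that removes ISG15 from proteins and damps the interferon receptor, had medians of 22.2 and 17.4 CPM (0.44, SE 0.21). *DTX3L*, the ubiquitin ligase partner of PARP9, had medians of 19.3 and 15.1 CPM (0.38, SE 0.16). *IFIT2* and *HERC6* completed the 7, with log2 fold changes of 0.75 (SE 0.32) and 0.79 (SE 0.37). Without CONHC cow 41 these last 2 were 0.57 and 0.45. The edgeR adjusted p of the 7 members lay between 0.553 and 0.808.

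In GLY cows 3 members (8.33%) had an unadjusted p under 0.05, all higher in GLYHC than in GLYLC, beside 5.06% of all tested genes in that direction and 12.5% in either, and none was called (0.201% of all tested genes were). *IFI6* ranged from 9.08 to 141 CPM in GLYHC (median 13.7) and from 6.27 to 14.9 CPM in GLYLC (median 7.92). The means were 43.9 ± 55.1 CPM (SD, n = 8) and 8.95 ± 2.96 CPM (SD, n = 7), and 6 of the 8 GLYHC cows lay between 9.08 and 27.2 CPM. The log2 fold change was 2.28 (SE 0.55, edgeR adjusted p = 0.1), just above the threshold before rounding. DESeq2 on all cows called it (adjusted p = 0.0288). With 1 cow left out the value lay between 1.73 and 2.45 over the 31 edgeR fits, of which 7 called it. Without GLYHC cows 117 and 131 it was 0.67 (unadjusted p = 0.0698, adjusted p = 0.522 in edgeR), and with edgeR on the GLYHC and GLYLC cows alone the adjusted p was 0.352. *MX2* had medians of 3.1 CPM in GLYHC and 1.76 CPM in GLYLC (log2 fold change 0.81, SE 0.32, edgeR adjusted p = 0.282). *TRIM25*, the ligase that activates RIG-I by ubiquitination, had medians of 52.4 and 37.2 CPM (0.41, SE 0.20, edgeR adjusted p = 0.383). DESeq2 on all cows put 4 members under an unadjusted p of 0.05. The edgeR count was 5 without GLYHC cow 37, GLYHC cow 127, GLYLC cow 102 or GLYLC cow 912, and 2 without GLYHC cow 32, GLYHC cow 131, GLYHC cow 152 or GLYLC cow 42.

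As a list the members lay on both sides in GLY cows: 21 log2 fold changes of GLYHC over GLYLC were above 0 and 15 below, and the median was 0.09. Of all tested genes 48.6% were above 0 and the median was -0.01. Without GLYHC cow 117 this median was -0.05, and without GLYLC cow 912 it was 0.16. The 3 cytoplasmic RNA sensors had values of 0.17 to 0.45 for CONHC over CONLC and of -0.19 to -0.02 for GLYHC over GLYLC. The 4 genes of the ADP-ribosylation group (*PARP9*, *PARP12*, *PARP14* and *DTX3L*) had values of -0.01 to 0.38 in CON and of -0.18 to -0.07 in GLY. By contrast, several members outside these groups had nearly the same difference in both treatments. Examples were *CXCL10* with 0.66 (SE 0.33) in CON and 0.65 (SE 0.34) in GLY, *IFIT3* with 0.41 and 0.45, and *UBA7* with 0.23 and 0.20.

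**Figure D2:**
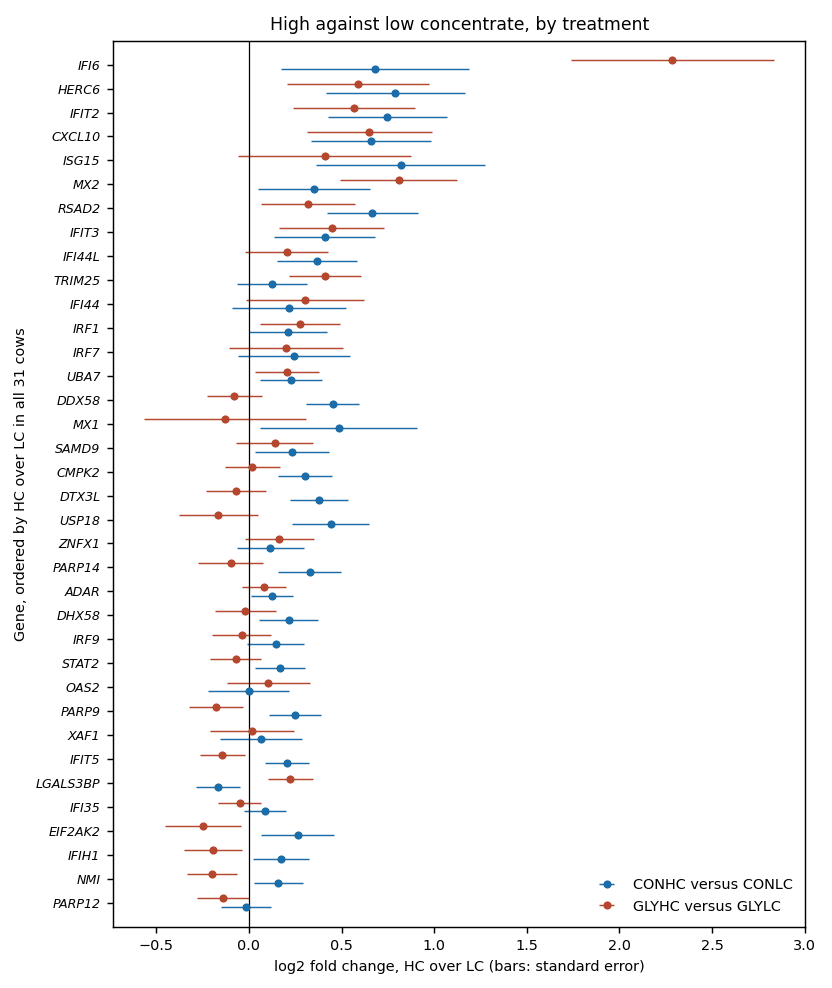
Log2 fold change of HC over LC for each of the 36 members, with CONHC versus CONLC in blue and GLYHC versus GLYLC in red; bars are standard errors and genes are ordered by the value over all 31 cows. In CON 33 of 36 points are above 0, in GLY 21 of 36, and the red point of *IFI6* stands alone at 2.28.

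Whether glyphosate in the ration went with other levels of the members was asked at each CFP and over all cows with CFP as a covariate. Between GLYHC and CONHC, 3 members (8.33%) had an unadjusted p under 0.05 and none was called, beside 2.92% of all tested genes and 0 called genes. *IFI6* was at 1.29 (SE 0.51), *IFIT5*, an RNA-binding relative of IFIT2, at -0.28 (SE 0.12) and *DDX58* at -0.34 (SE 0.14), each as log2 of GLYHC over CONHC with an edgeR adjusted p of 1. The *IFI6* medians of the 2 groups were 13.7 and 14.1 CPM, and its log2 fold change was 0.74 without GLYHC cow 117 and -0.32 without GLYHC cows 117 and 131. *DDX58* had medians of 28.2 CPM in GLYHC and 34.8 CPM in CONHC, and *IFIT5* 65.1 and 78.8 CPM. Values below 0 were found for 25 of 36 members, with a median of -0.10, while 51.5% of all tested genes were above 0 with a median of 0.01. This median was -0.22 without GLYHC cow 117 and -0.02 without GLYHC cow 37. DESeq2 on all cows also called no member and put 3 under an unadjusted p of 0.05, and edgeR put 1 there without CONHC cow 134.

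Between GLYLC and CONLC, only *STAT2* had an unadjusted p under 0.05, 1 of 36 members (2.78%) beside 5.65% of all tested genes (3.71% with higher values in GLYLC). *STAT2*, the transcription factor of the type I interferon response, ranged from 139 to 260 CPM in GLYLC (median 182) and from 114 to 185 CPM in CONLC (median 144). Its difference on the log2 scale was 0.35 (SE 0.14, edgeR adjusted p = 0.748), and no member was called (0.0628% of all tested genes were). Without GLYLC cow 912 the value was 0.26 and no member was under an unadjusted p of 0.05. Without GLYLC cow 544 there were 5 such members. DESeq2 on all cows put 2 members under 0.05 and called none. The median over the members was 0.13, with 25 of 36 above 0 beside 49.4% of all tested genes. It became -0.0045 without GLYLC cow 912 and 0.20 without CONLC cow 166.

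Over all cows, GLY against CON again gave *STAT2* alone, with medians of 176 CPM in 15 GLY cows and 160 CPM in 16 CON cows and a log2 fold change of 0.22 (SE 0.10, edgeR adjusted p = 1). That is 2.78% of the members beside 3.92% of all tested genes (2.48% with higher values in GLY). No gene of any kind was called by edgeR, and DESeq2 also called no member and put 1 under an unadjusted p of 0.05. The median over the members was 0.04, with 22 of 36 above 0 beside 51.5% of all tested genes, and turned to -0.04 without GLYLC cow 912. The count of 1 became 0 without GLYHC cow 37 or GLYLC cow 102, and 2 without GLYHC cow 117 or GLYLC cow 912. The *STAT2* difference was 0.18 without that cow (unadjusted p = 0.0612 in edgeR).

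The interaction asks whether the HC to LC difference in GLY cows differs from that in CON cows. It had an unadjusted p under 0.05 for 5 members (13.9%) beside 4.21% of all tested genes. No member was called by edgeR or by DESeq2 on all cows, which put 6 under 0.05, and the lowest edgeR adjusted p was 0.999. The values were -0.53 (SE 0.21) for *DDX58*, -0.42 (SE 0.20) for *PARP9*, an ADP-ribosyltransferase family member that works with DTX3L, -0.35 (SE 0.17) for *IFIT5*, 0.39 (SE 0.17) for *LGALS3BP*, a secreted galectin-binding glycoprotein, and 1.60 (SE 0.73) for *IFI6*. For *LGALS3BP* the means were 217 ± 37.1 CPM (SD, n = 8) in CONHC, 243 ± 44.4 (SD, n = 8) in CONLC, 253 ± 35.2 (SD, n = 8) in GLYHC and 217 ± 35.9 (SD, n = 7) in GLYLC. The median interaction of the members was -0.17, and 27 of 36 values were below 0, whereas 51.7% of all tested genes were above 0. Without GLYLC cow 912 *PARP9* was at -0.27 (unadjusted p = 0.134 in edgeR), and without GLYHC cow 117 *IFI6* was at 1.05 (unadjusted p = 0.125 in edgeR). The median was -0.32 without GLYHC cow 117 and -0.05 without CONHC cow 41. Without CONHC cow 134 or GLYLC cow 912, 2 members were under 0.05. Without GLYHC cow 117 there were 10, and without GLYHC cows 117 and 131 there were 9, where *IFI6* stood at -0.01. Without the 3 cows GLYHC 117, CONHC 41 and GLYLC 912 there were 2.

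Most of the spread of the members lay between cows of the same group. The within-group coefficient of variation had a median of 28.6% over the members and 18.5% over 11835 tested genes of at least 1 CPM, and 32 of 36 members were above that second value. The feeding group accounted for a median of 12.7% of the variance of a member on the log2 scale, against 8.77% over all tested genes. The extremes were *IFI6* with a coefficient of variation of 139% and *IFI35* with 15.5%. *ISG15* came second with 81.5%.

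The levels of the remaining members are given here by role. Among the sensors, *IFIH1* (MDA5, which detects long double-stranded RNA) ran from 12.3 CPM in GLYHC 37 to 31.3 CPM in GLYLC 912 with a median of 15.5. *DHX58* (LGP2, a regulator of both other sensors) ran from 11 to 27.2 CPM (median 17.6), and *DDX58* from 16.1 to 44.9 CPM (median 27.8). The lowest values of *DHX58* and *DDX58* were in the same cow, GLYLC 544.

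Among the transcription factors and their partners, *STAT2* ran from 114 to 260 CPM around a median of 171. *IRF9*, its DNA-binding partner, ran from 20.7 to 49.1 CPM (median 28.1). *IRF1*, the factor most directly tied to interferon-gamma, ran from 16 to 78.6 CPM (median 28.7), the highest value being that of GLYHC 117 at 2.74 times the median. *IRF7*, which drives the production of type I interferons, spread over a wider range, from 2.15 CPM in GLYLC 102 to 16.1 CPM in GLYLC 912 (median 6.28). *NMI* and *IFI35*, which form a complex with each other, ran from 13.6 to 35.4 CPM (median 20.6) and from 11.8 to 22.1 CPM (median 17).

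In the ISG15 system, *ISG15* itself had a 20.5-fold range, from 2.82 CPM in GLYLC 544 to 57.8 CPM in GLYHC 117 around a median of 10.6. The group medians were 15.9 CPM in CONHC, 7.95 in CONLC, 11.6 in GLYHC and 8.74 in GLYLC. Its ranges overlapped in all groups, and the log2 difference of CONHC over CONLC was 0.82 (SE 0.46, edgeR adjusted p = 0.864). *UBA7*, the enzyme that activates ISG15 for conjugation, ran from 18 to 50.6 CPM (median 25.3), *HERC6* from 4.8 to 34.5 CPM (median 7.13), *USP18* from 9.71 to 41.2 CPM (median 19.2) and *TRIM25* from 26 to 87.8 CPM (median 47.3).

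The antiviral effectors included both Mx GTPases. *MX1* spread over a 10.5-fold range, from 10.8 CPM in GLYHC 37 to 113 CPM in GLYLC 912 (median 36.8), and *MX2* over a 6.77-fold range, from 0.854 to 5.79 CPM (median 2.3). *EIF2AK2* (PKR, a kinase that stops translation when it meets double-stranded RNA) ran from 8.61 to 35.8 CPM (median 15), and *OAS2*, which makes the messenger that activates RNase L, from 0.617 to 1.93 CPM (median 1.34). *ADAR*, an RNA editing enzyme, varied only from 24.1 to 43.4 CPM (median 31.4), and *IFIT5* from 49.6 to 98.3 CPM (median 67.1). *ZNFX1*, a helicase that senses viral RNA at mitochondria, ran from 13.4 to 42.7 CPM (median 20.1), *SAMD9*, a restriction factor of poxviruses, from 2.31 to 9.38 CPM (median 5.29) and *CMPK2* from 11.1 to 25.5 CPM (median 15.3).

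In the ADP-ribosylation group *PARP14* ran from 25.4 to 72.3 CPM (median 36.5), *PARP9* from 17.4 to 45.8 CPM (median 25.7), *PARP12* from 18.9 to 42.7 CPM (median 23.3) and *DTX3L* from 12 to 34.3 CPM (median 17.3). All 4 were highest in the same cow, GLYLC 912. Of the others, *IFI44* and *IFI44L*, neighbouring genes with a GTP-binding domain, ran from 4.84 to 31.7 CPM and from 6.51 to 20.5 CPM around the same median of 10.3, and both were lowest in CONLC 145. *XAF1*, a proapoptotic factor, ran from 4.73 to 17.1 CPM (median 6.63).

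Across the 31 cows the members varied together. Log2 CPM were centred on the mean of the feeding group, so that differences between groups played no part, and the Pearson correlation of each of the 630 pairs of members had a median of 0.44 (range -0.33 to 0.91). Of these pairs 41% had r above 0.5 and 6.51% were below 0, while the median over all pairs of tested genes of at least 1 CPM was -0.0037 and 3.87% were above 0.5. Each member was also set against the mean of the other members, and the median r was 0.67. It was above 0.5 for 26 of 36 members and highest for *PARP14* (0.93), *HERC6* (0.89), *IFIH1* (0.88), *ZNFX1* (0.87) and *ISG15* (0.87). The closest pairs were *IFIH1* with *PARP14* (0.91) and *DTX3L* with *EIF2AK2* (0.90).

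A small set of members stood aside. *LGALS3BP* (r with the mean of the others 0.10), *TRIM25* (0.19), *SAMD9* (0.25) and *STAT2* (0.29) were the lowest, and the most negative pair was *STAT2* with *IFI35* (-0.33). *STAT2* had r = 0.70 with *EIF2AK2* and 0.59 with *DTX3L*. All these values share the same libraries, and 3 cows weighed on them: without GLYHC 117, CONHC 41 and GLYLC 912, which had the highest means of the members, the median over pairs was 0.27, the median r with the other members was 0.50 and 18 members stayed above 0.5. *PARP14* then had 0.89 and *IFI44* went from 0.76 to 0.83, whereas *NMI* went from 0.64 to 0.14 and *SAMD9* from 0.25 to -0.02. The members' mean had r = -0.27 and rho = -0.22 with the log2 of total reads, and its relation to depth was not tested.

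**Figure D3:**
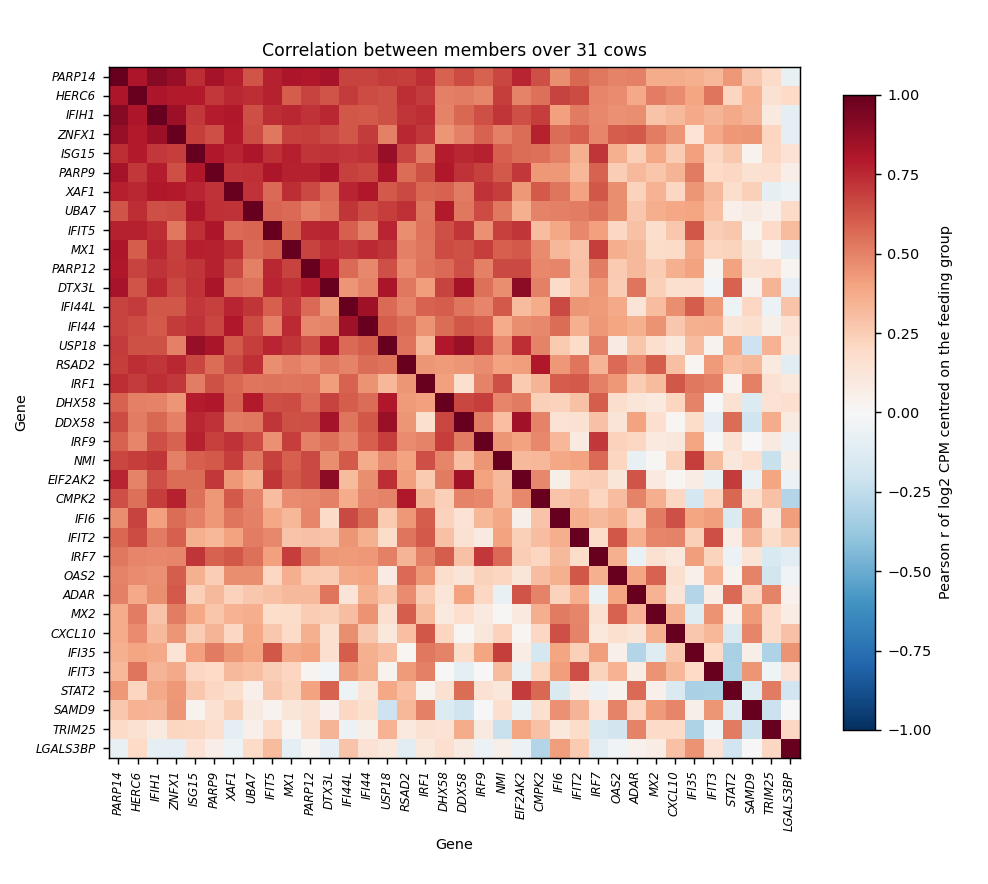
Pearson r between every pair of the 36 members over 31 cows, after centring on the feeding group; genes on both axes run from the highest to the lowest r with the other members, and the diagonal is each gene with itself. The block from *PARP14* to *USP18* is red throughout, while the rows of *STAT2*, *SAMD9*, *TRIM25* and *LGALS3BP* are pale, with r with the other members of 0.10 to 0.29.

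For 8 pairs with a known link, r was tested by permuting cows within groups (100000 permutations, two-sided, adjusted over the 8 pairs). The permutations ask only whether the genes of a pair vary together. Pairs of members in general had a median r of 0.44, and 41% were above 0.5. A small p therefore cannot tell a known link from the shared variation of the members. *ISG15* and its protease *USP18* had r = 0.87 and Spearman's rho = 0.91 (n = 31, permutation p = 1e-05 for both, the smallest that these permutations can give; adjusted p = 2.67e-05 and 4e-05), and r was 0.86 without the 2 cows farthest from the median of *ISG15*. *IFI44* and *IFI44L* had r = 0.85 and rho = 0.84 (permutation p = 1e-05 for both, adjusted p = 2.67e-05 and 4e-05), and r was 0.77 without 2 cows. *RSAD2* and *CMPK2* had r = 0.80 and rho = 0.76 (permutation p = 2e-05 for both, adjusted p = 4e-05 and 5.33e-05), and r was 0.67 without 2 cows. *PARP9* and *DTX3L* had r = 0.82 and rho = 0.70 (permutation p = 1e-05 and 3e-05, adjusted p = 2.67e-05 and 6e-05), and r was 0.72 without 2 cows. The last pair overlaps in the RefSeq annotation of assembly ARS-UCD2.0, and how HTSeq was set for strand is not given in the sources used here, so reads of the overlap cannot be told apart.

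Looser but still past the adjusted threshold were the sensors *IFIH1* and *DDX58*, with r = 0.57 and rho = 0.65 (permutation p = 0.00499 and 0.00029, adjusted p = 0.00665 and 0.000464), and r = 0.54 without 2 cows. *IRF1* and *CXCL10*, both typical of the interferon-gamma response, had r = 0.62 and rho = 0.55 (permutation p = 0.00095 and 0.00216, adjusted p = 0.00152 and 0.00288), and r = 0.45 without GLYHC cows 117 and 37. No relation past the threshold was found for the 2 Mx genes, with r = 0.18 and rho = 0.17 (permutation p = 0.379 and 0.395, adjusted p = 0.433 and 0.451) and r = 0.18 without 2 cows. The same held for *STAT2* and *IRF9*, with r = 0.15 and rho = 0.08 (permutation p = 0.497 and 0.701, adjusted p = 0.497 and 0.701) and r = 0.10 without 2 cows.

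Of the 36 members 35 had a symbol in RefSeq, and they lay on 16 chromosomes. Members were next to each other in the gene order of ARS-UCD2.0 in 6 cases: *PARP9* with *DTX3L*, *DTX3L* with *PARP14*, *RSAD2* with *CMPK2*, *IFIT2* with *IFIT3*, *IFI44* with *IFI44L* and *MX2* with *MX1*. Their r had a median of 0.81, and the Mx pair with 0.18 was the lowest of them. *MX1* and *MX2*, the IFIT genes and the IFI44 genes are related in sequence, and only uniquely mapped reads were counted, so their levels are uncertain to that extent.

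The members' mean, taken as log2 of CPM over each gene's median cow, ranked GLYHC 117 first (0.90), followed by CONHC 41 (0.70) and GLYLC 912 (0.50). At the other end stood CONLC 941 (-0.40), GLYHC 37 (-0.40) and CONLC 145 (-0.36), and no member of CONLC 941 was above its median. The group means were 0.19 ± 0.26 (SD, n = 8) in CONHC, -0.12 ± 0.24 (SD, n = 8) in CONLC, 0.11 ± 0.39 (SD, n = 8) in GLYHC and -0.06 ± 0.28 (SD, n = 7) in GLYLC, and the ranges of all 4 groups overlapped. GLYHC thus contained both the highest cow and the second lowest.

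**Figure D4:**
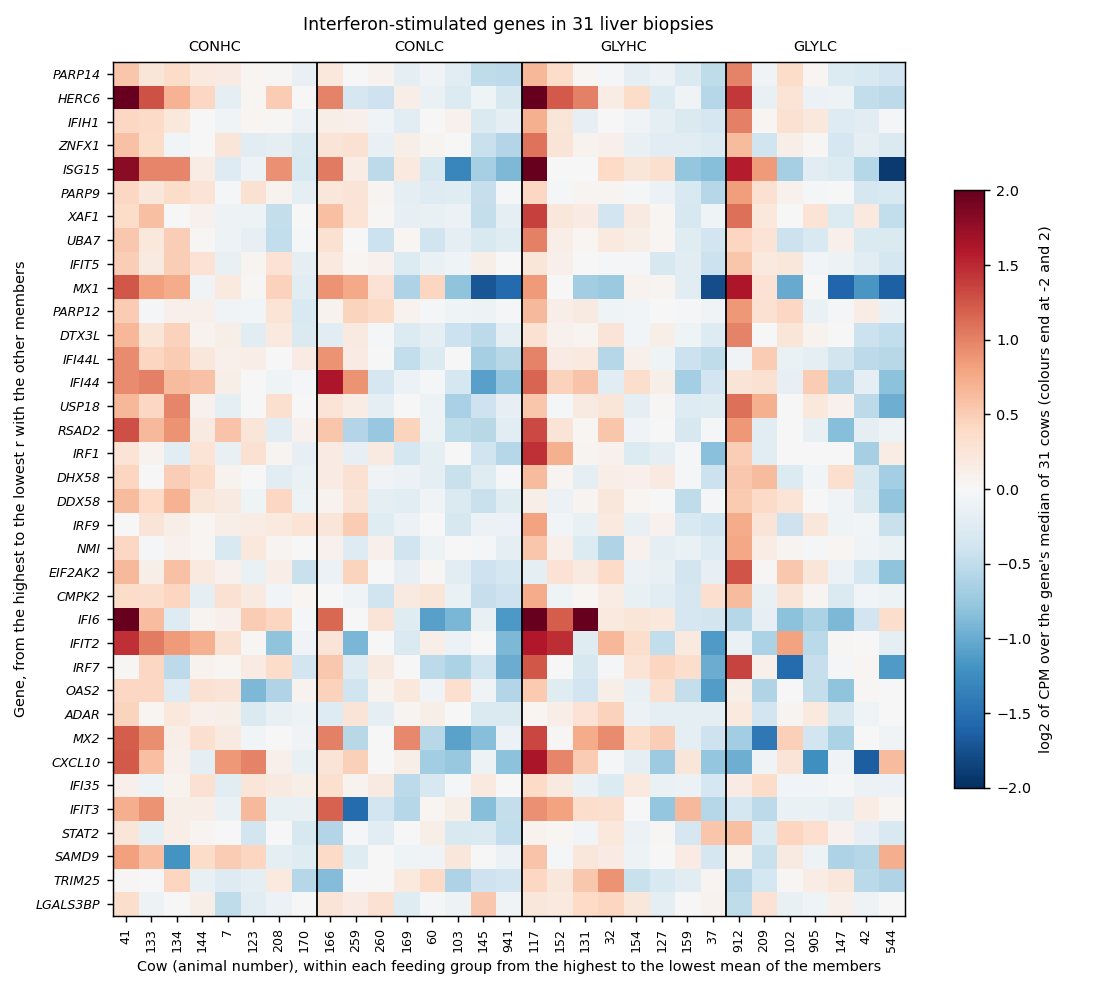
Heat map of the 36 members (vertical axis, from the highest to the lowest r with the others) in 31 cows (horizontal axis, by feeding group and from the highest to the lowest mean); colour is log2 of CPM over the gene's median cow, with colours ending at -2 and 2. The leftmost columns of CONHC, GLYHC and GLYLC, cows 41, 117 and 912, are red over most genes, with 35, 35 and 28 of 36 members above their median.

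The 3 cows with the highest means shared many members: they were the 3 highest cows for 8 of 36 members, and 26 members were above their median in all 3. GLYHC 117 was among the 3 highest cows for 25 members, of which 15 were shared with CONHC 41 and 14 with GLYLC 912. It held the highest value of 16 members, among them *IFI6* (12.1 times the median cow), *ISG15* (5.43), *HERC6* (4.84), *CXCL10* (3.09), *IFIT2* (3.03), *IRF1* (2.74) and *MX2* (2.51). CONHC 41 was above the median in several of the same genes, with *HERC6* at 4.4, *IFI6* at 4, *ISG15* at 3.5, *IFIT2* at 2.75 and *CXCL10* at 2.35 times the median cow. GLYLC 912 held the highest value of 12 others, among them *MX1* (3.08), *IRF7* (2.57), *EIF2AK2* (2.39), *USP18* (2.14), *IFIH1* (2.02) and all 4 genes of the ADP-ribosylation group (1.78 to 1.98). In GLYLC 912 *IFI6* was at 0.68, *MX2* at 0.618 and *CXCL10* at 0.51 times the median cow, while *EIF2AK2* was at 0.874 in GLYHC 117. CONHC 41 was in the top 3 for 22 members and held the highest value of 1, *SAMD9*. These cows were picked for their values, so the contrast between them is a description.

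**Figure D5:**
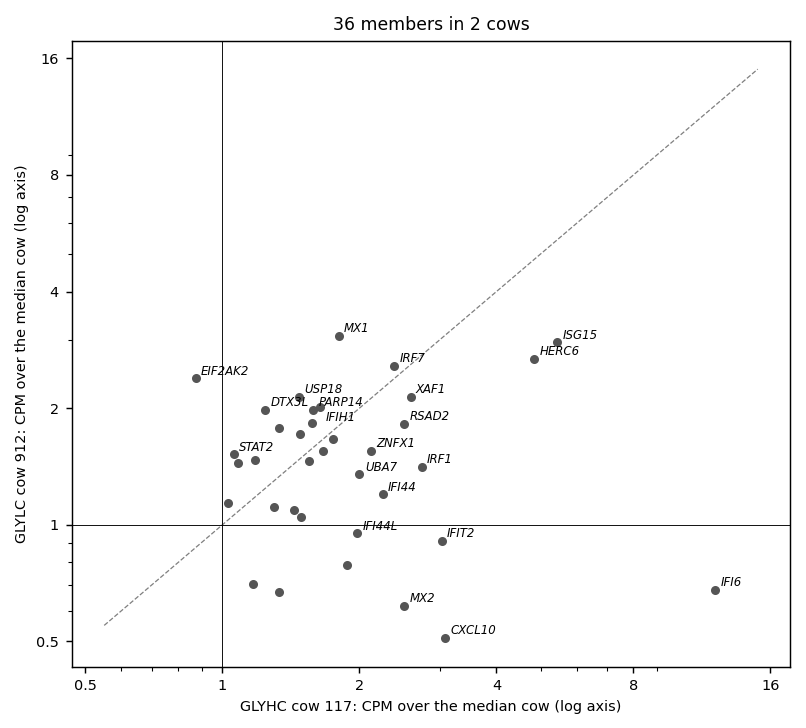
CPM over the median of all 31 cows in GLYHC cow 117 (horizontal, log axis) against GLYLC cow 912 (vertical, log axis); each point is 1 of 36 members, the dashed line marks equal values and the solid lines mark the median cow. *IFI6* lies far to the right at 12.1 and 0.68, and *EIF2AK2* far to the left at 0.874 and 2.39.

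GLYHC 117 and GLYLC 912 also stood apart in markers of other cells. GLYHC 117 had the highest sum of 7 T and natural killer cell markers (67.1 CPM, where the other groups reached at most 49.5) and of 9 macrophage markers (1360 CPM in a range of 444 to 1360), and the lowest sum of 5 stellate cell and fibroblast markers (91.7 CPM). GLYLC 912 had the lowest hepatocyte sum and the highest sum of 5 B and plasma cell markers (160 CPM, against at most 63.1 in other groups). CONHC 41, second in the members' mean, had 860 CPM of macrophage, 34.9 CPM of T and natural killer cell and 15.3 CPM of B and plasma cell markers. These sums were neither the highest nor the lowest in CONHC, while its neutrophil sum of 16.5 CPM was the highest there. None of the genes of these lists was at 0 in every cow. For correlations over all cows, each marker list was taken as its mean log2 CPM over the median cow, centred on the feeding group. These list means had r with the members' mean from -0.28 (rho = -0.12) for hepatocyte markers to 0.38 for intestinal epithelium (rho = 0.15) and neutrophil markers (rho = 0.38). For intestinal epithelium the highest sum, 289 CPM, was that of GLYLC 912. No cow of the other groups had more than 0.228 CPM. The T and natural killer cell list mean had r = 0.35 and rho = 0.08. The part of these cells in the members' levels was not tested. Endothelium and bile duct list means had r of 0.18 and 0.08. The macrophage list mean had r = 0.13 and rho = 0.05. By this list mean before centring, GLYHC 117 ranked 2, although its macrophage sum was the highest.

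*IFI6* did not follow the other members in every cow. GLYHC 131 had 123 CPM of it, but its mean over the members was only 0.19 and it held the highest value of no member. 2 non-members related to IFI6 in sequence, named after their values were seen, were also high in GLYHC 131. *IFI27* was at 251 CPM in GLYHC 131 and 254 CPM in GLYHC 117 (median cow 25.2). *ISG12(B)* was at 32.9 CPM in GLYHC 131 and 15.4 CPM in GLYHC 117 (median cow 2.43). However, it was also at 29.5 CPM in CONHC 41 and 27.5 CPM in GLYLC 912. The r of *ISG12(B)* was 0.57 with *IFI6* and 0.72 with the members' mean. The r of *IFI6* with *IFI27* over the 31 cows was 0.89, the highest of all genes of at least 1 CPM, and 0.76 without GLYHC 117 and 131.

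The genes upstream of the members were counted from lists of the pathway. Among the interferons themselves, *IFNB1*, *IFNAG*, *IFNAH*, *IFNW1*, *IFNT* and *IFNK* had 0 reads in all cows, *IFNE* had 12 reads in 12 cows and *IFNL3* had 1 read. *IFNG*, the gene of interferon-gamma, had 41 reads in 20 cows, of which 17 were in GLYHC 117 (1.21 CPM), and no other cow had more than 4. A count of 0 allows up to 3 reads, which is 0.0818 to 0.257 CPM depending on the library, and this covers counting error only. *IFNG* was the only interferon gene with enough reads to be tested, and its log2 fold change of GLYHC over GLYLC was 2.08 (edgeR adjusted p = 0.369), that cow included. Differences of the other interferon genes were not detectable at this depth.

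Among the receptor and JAK-STAT genes reported here, *IRF8* and *JAK2* had an unadjusted p under 0.05 in HC against LC, both with higher values in HC and neither called. Such a p with higher values in HC was found for 5.88% of all tested genes. *IRF8*, a factor of macrophages and dendritic cells, was at 0.40 (SE 0.12, edgeR adjusted p = 0.11) and *JAK2*, a kinase of the interferon-gamma receptor, at 0.17 (SE 0.06, edgeR adjusted p = 0.227). In GLY against CON, 3 of the 18 tested genes of this list had such a p, all with higher values in GLY. This direction held 2.48% of all tested genes at such a p. *IFNAR1*, a subunit of the type I receptor, was at 0.42 (SE 0.20), *SOCS3*, a feedback inhibitor, at 0.78 (SE 0.37) and *IL10RB*, a subunit of the type III receptor, at 0.16 (SE 0.07), each with an edgeR adjusted p of 1. *SOCS3* was at 17.8 CPM in GLYHC 32, where the median cow had 1.97, and without that cow its difference was 0.35 (unadjusted p = 0.293 in edgeR). Without GLYLC 912 *IFNAR1* was at 0.27 (unadjusted p = 0.122 in edgeR). *IL10RB* was above 0.05 without GLYLC 905 (unadjusted p = 0.0509 in edgeR). *IFNAR1* and *STAT3* were highest in GLYLC 912, at 199 and 492 CPM where the median cows had 59.7 and 144.

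Of 14 genes of nucleic acid sensing, 3 had an unadjusted p under 0.05 in HC against LC, namely *TMEM173* (STING, 0.35, SE 0.12) and the endosomal receptors *TLR7* (0.57, SE 0.24) and *TLR8* (0.52, SE 0.17), with an edgeR adjusted p of 0.157 to 0.274. Higher values in HC with such a p were found for 5.88% of all tested genes. *TLR7* was above 0.05 without CONHC 133 (unadjusted p = 0.0528 in edgeR). None of the 14 reached it in GLY against CON. Of 25 further interferon-stimulated genes outside the list of members, 6 had an unadjusted p under 0.05 in HC against LC, all higher in HC and none called: *IFI27* (1.13, SE 0.43), *GBP4* (0.64, SE 0.23), *RTP4* (0.64, SE 0.24), *IFI30* (0.57, SE 0.18), *TNFSF10* (0.43, SE 0.12) and *TRIM21* (0.19, SE 0.07), with an edgeR adjusted p of 0.104 to 0.224, beside the same 5.88% of all tested genes. *IFI27* was at 0.84 without CONHC 41 (unadjusted p = 0.0661 in edgeR). None of the 25 reached it in GLY against CON, where the median was 0.03.

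Genes outside the list that followed the members' mean most closely, among genes of at least 1 CPM and after centring on the group, were *IFIT1* and *OAS1Y* (both r = 0.91 over 31 cows) and *RTP4* (0.86). They were followed by a gene without a symbol (ENSBTAG00000007883, 0.81) and *ATF3* (0.76). Of the 23 further interferon-stimulated genes at this level, 12 (52.2%) had r above 0.5, against 2.46% of 11799 genes that are no members. The share was 16.7% in the sensing list. *CXCL9*, *PSMB9* and *TAP1*, which interferon-gamma induces strongly, were highest in GLYHC 117, at 48.2, 27.3 and 46.5 CPM where the median cows had 4.49, 5.45 and 12.8. They were not alone in this: *RTP4*, *IFI27*, *IFITM3* and *EPSTI1* of the same list were also highest in that cow. Others of the list were highest elsewhere, such as *GBP4* in CONHC 133, *IFIT1* in CONHC 41 and *OAS1Y* in GLYLC 912.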

How the data were processed

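RNA-seq of liver biopsies of 31 cows was analysed. The authors used Trim Galore for trimming, HISAT2 2.1.0 for alignment to UMD3.1 and HTSeq 0.8.0 to assign uniquely mapped reads to genes. The raw counts per gene that the authors deposited were used, and all value columns were mapped to a cow by its label. A second deposited table of normalized values was not used. Members, lists and tests were chosen with earlier results of these data known. Each label names a separate cow, so p-values measure the spread between cows.

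Genes whose reads over the 31 cows came to 20 or more entered edgeR 4.0.16 in R 4.3.3 (TMM factors of 0.922 to 1.135, quasi-likelihood F test). 1 model held the 4 groups, and HC versus LC (covariate treatment) and GLY versus CON (covariate CFP) came from additive models. SE is the log2 fold change divided by the root of F. Comparisons that use the same groups share cows. Correlations used log2 CPM with a prior count of 2, centred on group means, in Python 3.11.15 with numpy 2.4.6 and scipy 1.17.1. Fits were tested on simulated counts.

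A member was given with full statistics where its unadjusted p was under 0.05, and genes of other lists were named where this held in HC versus LC or GLY versus CON. Of the genes this rule covers, 1 is not reported here. Genes named beyond that rule were chosen after their values were seen. Alternatives were RLE factors, no filter, filterByExpr, a robust fit, only the compared groups, DESeq2 1.42.0, another prior count, uncentred values, and each cow left out in turn. Leaving out 2 or 3 high cows together, and single cows for genes of the other lists, was chosen after seeing the data. All same-group pairs of cows differed beyond sampling noise (chi-square per gene of 24.5 to 487). No sequence table was used here.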

Additional observations from a re-analysis of the deposited data

Results flagged for a closer look

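Dixon's criterion at the 95% level was applied on the log2 scale to 144 combinations of a member and a feeding group. In 9 of them a cow lay far from its nearest neighbour for the range of the group. Chance flags about 1 in 20 such groups, which would be 7.2 of 144. Of the 9, 5 were in GLYHC 117: *ISG15* at 57.8 CPM (next cow 13.9), *XAF1* at 17.1 CPM (7.76), *PARP12* at 36.7 CPM (26.3), *ZNFX1* at 42.7 CPM (24.1) and *UBA7* at 50.6 CPM (29). GLYLC 912 gave *HERC6* at 19.1 CPM (next cow 8.66) and *NMI* at 35.4 CPM (22.8). *IFI6* was at 46.6 CPM in CONHC 41 (next cow 18), and *HERC6* at 14.2 CPM in CONLC 166 (7.83). The 2 high GLYHC values of *IFI6* (141 and 123 CPM) do not meet the criterion, because each is the nearest neighbour of the other.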

How the results depend on the processing

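No paired analysis was possible because the animal numbers are not shared between groups. The call of *IFI6* in HC against LC was lost without a filter (adjusted p = 0.107), in the robust fit (0.116) and without either set of 2 or 3 high cows, so 0 members were called there. 1 member, *IFI6*, was called in GLYHC against GLYLC with RLE factors (adjusted p = 0.0987), with DESeq2 on all cows and with DESeq2 on the 2 groups (0.0716). *DDX58* was the 1 member called in CON by DESeq2 on the 2 groups. Members at an unadjusted p under 0.05 came to 11 in CON with edgeR on the 2 groups, 12 with DESeq2 on the 2 groups and 11 without GLYHC 117 and 131. They came to 5 in GLYHC against CONHC with DESeq2 on the 2 groups and to 2 in GLYLC against CONLC with DESeq2 on all cows. Without GLYHC 117 and 131 they came to 2 in GLY against CON and 9 in the interaction, and *IFI6* turned to -0.32 in GLYHC against CONHC and -0.0112 in the interaction. Without GLYHC 117, CONHC 41 and GLYLC 912 they came to 3 in GLY against CON, 6 in GLYHC against CONHC, 1 in GLYHC against GLYLC, 0 in GLYLC against CONLC and 2 in the interaction. Leaving out 1 cow gave 2 to 13 such members in CON, 2 to 5 in GLYHC against GLYLC, 1 to 4 in GLYHC against CONHC, 0 to 5 in GLYLC against CONLC, 0 to 2 in GLY against CON, 6 to 14 in HC against LC and 2 to 10 in the interaction. Called members were 0 to 1 in HC against LC and in GLYHC against GLYLC, and 0 in the other comparisons. The shares of all tested genes under these alternatives are not given here, and the cause of these changes was not tested. The median pairwise r was 0.44 to 0.45 with another prior count, RLE factors or uncentred values and 0.32 without the 2 cows farthest from the median. All 8 tested pairs kept their side of the threshold under these alternatives. With 7 or 8 cows a group and a within-group coefficient of variation of 28.6%, small differences of a member could be missed, and *OAS2*, with as few as 11 reads in a cow, is the least precise.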
